A study of Mus musculus with 14 samples.

Results

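miR-148a, miR-148b and miR-152 form one microRNA family: their 3p arms carry the same seed, the stretch at bases 2 to 8 through which a microRNA pairs with its target mRNAs. The deposited table held 6 entries of the family at the annotated start, the 3p and the 5p arm of each hairpin, among 534 such entries and 2030 entries in all. mmu-mir-148a-3p and mmu-mir-152-3p were selected on their level profiles across cell populations, which share a peak in one population and differ elsewhere, and mmu-mir-148b-3p completes the seed family. Their levels are therefore described here and are not tested. The libraries come from small intestine of the strain C57BL/6J with a Sox9-eGFP reporter, whose green fluorescence reports the activity of the Sox9 gene. Cells from crypts, the pockets of the gut wall where new epithelium is made, were separated by fluorescence, and small RNA was sequenced from each fraction. There were 3 libraries each of Negative, Sublow, Low and High cells, ordered from dim to bright, and 2 libraries of Non-sorted cells. All 14 libraries share the strain and the reporter. The labels give neither the animals behind a library nor whether cells were pooled, so spreads and p-values cover the libraries only.

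In this reporter line, Low cells have been linked to crypt stem cells, Sublow cells to dividing progenitors, High cells to the enteroendocrine lineage and Negative cells to differentiated epithelium. MicroRNAs are cut from a hairpin precursor, and usually one arm is kept while the other is mostly degraded. This family is best known for repressing Dnmt1, the enzyme that copies DNA methylation to newly made strands, and miR-148a is abundant in liver and other digestive tissues.

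The mature 3p sequences are shown first because the family is defined by them. They are RefSeq sequences on assembly GRCm38.p6, written 5′ to 3′, with the seed in capitals.
miR-148a-3p: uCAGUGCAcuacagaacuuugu
miR-148b-3p: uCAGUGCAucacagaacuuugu
miR-152-3p: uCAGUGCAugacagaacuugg
Of 1738 mature mouse microRNAs in the RefSeq table, these 3 have the seed CAGUGCA. Counted from 1 at the 5′ end, miR-148a-3p differs from miR-148b-3p at C9U and U10C. Against miR-152-3p it differs at C9U, U10G and U20G, and miR-148b-3p differs from miR-152-3p at C10G and U20G. The differences among the 3 sequences thus begin just behind the seed. The mismatches that the authors allowed in alignment are not stated in the labels or the file, so reads carrying sequencing errors at these bases could have been counted for the wrong member.

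The 5p arms, shown because the arms of one hairpin are compared further on, share less.
miR-148a-5p: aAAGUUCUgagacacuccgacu
miR-148b-5p: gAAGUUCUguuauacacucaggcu
miR-152-5p: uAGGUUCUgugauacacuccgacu
The seed AAGUUCU is common to miR-148a-5p and miR-148b-5p, and miR-152-5p has AGGUUCU, a seed that no other mature microRNA in the table carries.

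The 3 hairpins are encoded apart from each other. On GRCm38.p6, mature miR-148a-3p lies at chr6:51269829-51269850 on the minus strand, miR-148b-3p at chr15:103285185-103285206 on the plus strand and miR-152-3p at chr11:96850439-96850459 on the plus strand. Mir152 lies within an intron of Copz2 and Mir148b within an intron of Copz1, both genes for a subunit of the COPI vesicle coat, in the sense direction. Mir148a overlaps no other gene in GENCODE M21 and falls inside the RefSeq gene model Gm38821. Each hairpin neighbours a gene of the Nfe2 transcription factor family, with Nfe2l3 beside Mir148a, Nfe2 beside Mir148b and Nfe2l1 beside Mir152. A match to the seed is present in the 3′ UTR of 3 of the 4 coding transcripts of Dnmt1, at chr9:20907492-20907498 on the minus strand of GRCm38, and is shown in capitals because Dnmt1 is the family's best-known target.
Dnmt1 3′ UTR: agagccccacgTGCACTGatgtttttaacc
The motif searched was TGCACTG on the transcript strand, and here an A follows it. Dnmt1 mRNA was not measured in these libraries.

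Values are RPM, reads scaled to a total of 1e+06 over the microRNA entries of a library, and depth was estimated from the steps between low values at 1.89 to 16.4 M reads (M, 1e+06). The smallest listed value of a library equals 9.99 to 10.9 reads, so a value of 0 means fewer than about 10 reads. miR-215-5p, an abundant microRNA of gut epithelium, took 33.5 to 34.5% of all values in Negative, 23.4 to 25.2% in Sublow, 4.37 to 5.25% in Low, 3.62 to 4.75% in High and 29.8 to 38.9% in Non-sorted libraries. Since each library has a fixed total, this alone lowers other values in Negative, Sublow and Non-sorted libraries, and differences are given also after median-ratio rescaling. Markers of gut epithelium were present: 8 entries summed to 558463 to 559871 RPM in Negative and 197246 to 230584 RPM in High libraries. miR-215-5p and miR-194-1-5p carry this difference, while miR-200a-3p, an epithelial marker of the same list, was at 8105 to 10007 RPM in Negative and 25018 to 30316 RPM in High libraries. Marker entries of enteroendocrine cells ran from 2551 to 3634 RPM in Negative up to 151003 to 172443 RPM in High libraries.

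miR-148a-3p was by far the most abundant member and was highest in Low cells. It was at 1082, 1064 and 1688 RPM in Negative, at 3799, 6312 and 6087 RPM in Sublow, at 7079, 9628 and 8616 RPM in Low and at 3139, 2752 and 3257 RPM in High libraries. The 2 Non-sorted libraries held 1873 and 2361 RPM. The order from lowest to highest was Negative, Non-sorted, High, Sublow, Low, and no library of one sorted population overlapped with another. Group means were 1278 ± 355 in Negative, 5400 ± 1391 in Sublow, 8441 ± 1284 in Low, 3049 ± 264 in High (SD, n = 3 each) and 2117 ± 345 RPM in Non-sorted cells (SD, n = 2). Low cells had 6.60 times the mean of Negative and 2.77 times that of High cells. In rank among the 534 annotated-start entries, miR-148a-3p stood at 27 to 32 in Low and at 45 to 49 in Negative libraries.

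**Figure D1:**
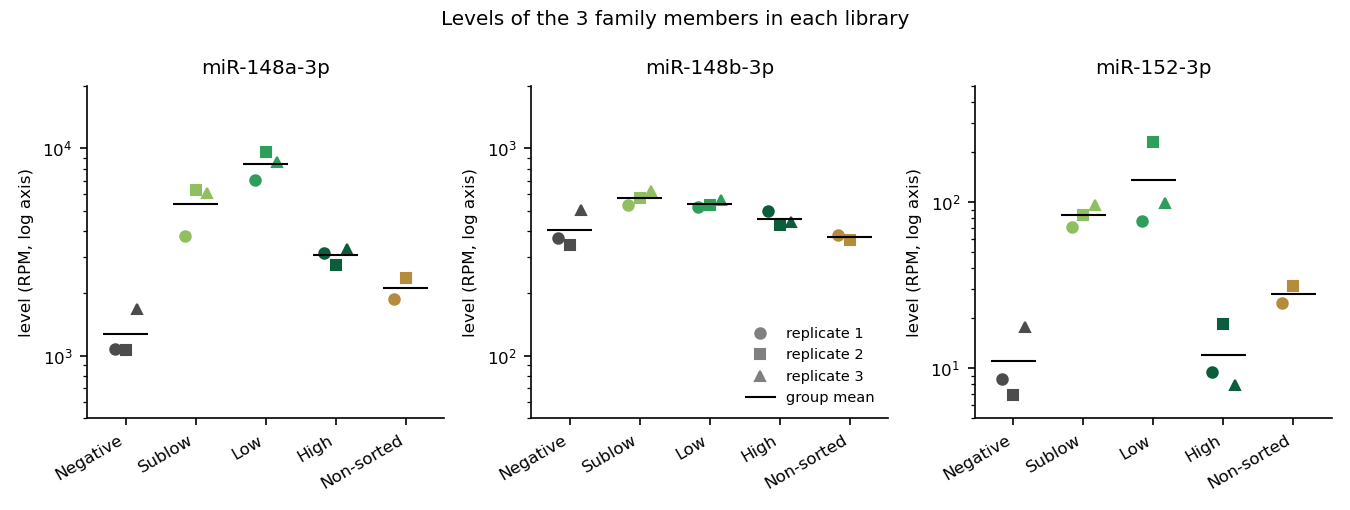
Level of miR-148a-3p, miR-148b-3p and miR-152-3p in RPM (log axis) in each library of Negative, Sublow, Low, High and Non-sorted cells, with marker shape giving the replicate number and the line the group mean. miR-148a-3p reaches 7079 to 9628 RPM in Low libraries, miR-148b-3p stays between 341 and 624.5 RPM in all libraries, and miR-152-3p is at 70.7 to 229 RPM in Sublow and Low libraries and at most 18.5 RPM in Negative and High libraries.

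miR-148b-3p was nearly level across the same populations. Its values were 372, 341 and 505 RPM in Negative, 535, 578 and 624.5 RPM in Sublow, 524, 536 and 563 RPM in Low and 500, 429 and 441 RPM in High libraries. Non-sorted libraries held 382 and 363 RPM. From lowest to highest the means ran Non-sorted, Negative, High, Low, Sublow. Negative libraries lay below all Sublow and Low libraries and overlapped with High, and Sublow overlapped with Low. The group means were 406 ± 87.0 in Negative, 579 ± 44.6 in Sublow, 541 ± 19.6 in Low, 457 ± 37.9 in High (SD, n = 3 each) and 373 ± 13.6 RPM in Non-sorted cells (SD, n = 2). Between the lowest and the highest mean of the sorted populations the ratio was 1.43, against 6.60 for miR-148a-3p.

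miR-152-3p was much scarcer and was high in Sublow and Low cells alike. The Negative libraries held 8.61, 6.92 and 17.6 RPM, the Sublow libraries 70.7, 83.8 and 95.6 RPM, the Low libraries 76.8, 229 and 99.2 RPM and the High libraries 9.46, 18.5 and 7.93 RPM. In Non-sorted cells it was at 24.7 and 31.2 RPM. The order from the lowest mean was Negative, High, Non-sorted, Sublow, Low. All Sublow and Low libraries lay above all others, Sublow overlapped with Low, and Negative overlapped with High. Means were 11.1 ± 5.77 in Negative, 83.4 ± 12.5 in Sublow, 135 ± 82.3 in Low, 11.95 ± 5.69 in High (SD, n = 3 each) and 28.0 ± 4.60 RPM in Non-sorted cells (SD, n = 2). Low replicate 2 set the Low mean: without it the mean was 88.0 RPM, 1.05 times that of Sublow, and the ratio to Negative was 7.95 in place of 12.2 and to High 7.36 in place of 11.3. By estimated reads, miR-152-3p rested on 44, 34 and 283 reads in the Negative libraries, on 379 to 1262 in Sublow and Low, and on 127, 53 and 15 in High. High replicate 3, at 15 reads, was thus close to the limit of about 10 reads below which values are listed as 0.

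The members' ratios within a library do not depend on the library's total. miR-148a-3p over miR-148b-3p was 2.91, 3.12 and 3.34 in Negative, 7.10, 10.9 and 9.75 in Sublow, 13.5, 17.95 and 15.3 in Low and 6.28, 6.41 and 7.38 in High libraries, with 4.90 and 6.51 in Non-sorted. Only Sublow and High overlapped among the sorted populations, so miR-148a-3p moved relative to miR-148b-3p by 4.99 times between Negative and Low means. Relative to miR-148b-3p, miR-152-3p was at 2.32, 2.03 and 3.50% in Negative, at 13.2, 14.5 and 15.3% in Sublow, at 14.6, 42.7 and 17.6% in Low and at 1.89, 4.30 and 1.80% in High libraries. The Low mean of this ratio was 25.0%, and 16.1% without Low replicate 2.

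The selected members were also set against each other. miR-152-3p relative to miR-148a-3p was 0.796, 0.650 and 1.05% in Negative, 1.86, 1.33 and 1.57% in Sublow, 1.08, 2.38 and 1.15% in Low and 0.301, 0.671 and 0.243% in High libraries, with 1.32% in both Non-sorted libraries. High and Negative libraries both lay below all Sublow and Low libraries and overlapped with each other, and Sublow overlapped with Low. High cells thus held 2.39 times the miR-148a-3p of Negative cells on the RPM scale, while their miR-152-3p values overlapped. Over the sorted libraries miR-152-3p relative to miR-148a-3p ranged from 0.243% in High replicate 3 to 2.38% in Low replicate 2. The next highest value was 1.86%, in Sublow replicate 1. The part of misassigned reads in either member was not tested.

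Summed over the 3 members, the seed family came to 1695 ± 447 in Negative, 6062 ± 1438 in Sublow, 9117 ± 1364 in Low, 3518 ± 278 in High (SD, n = 3 each) and 2518 ± 336 RPM in Non-sorted cells (SD, n = 2). miR-148a-3p supplied most of it everywhere, 75.2% in Negative, 88.7% in Sublow, 92.6% in Low and 86.6% in High cells on average. miR-148b-3p made up 24.1, 9.87, 6.02 and 13.0% in the same order, and miR-152-3p 0.626, 1.40, 1.42 and 0.35%. The family's total therefore followed miR-148a-3p.

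**Figure D2:**
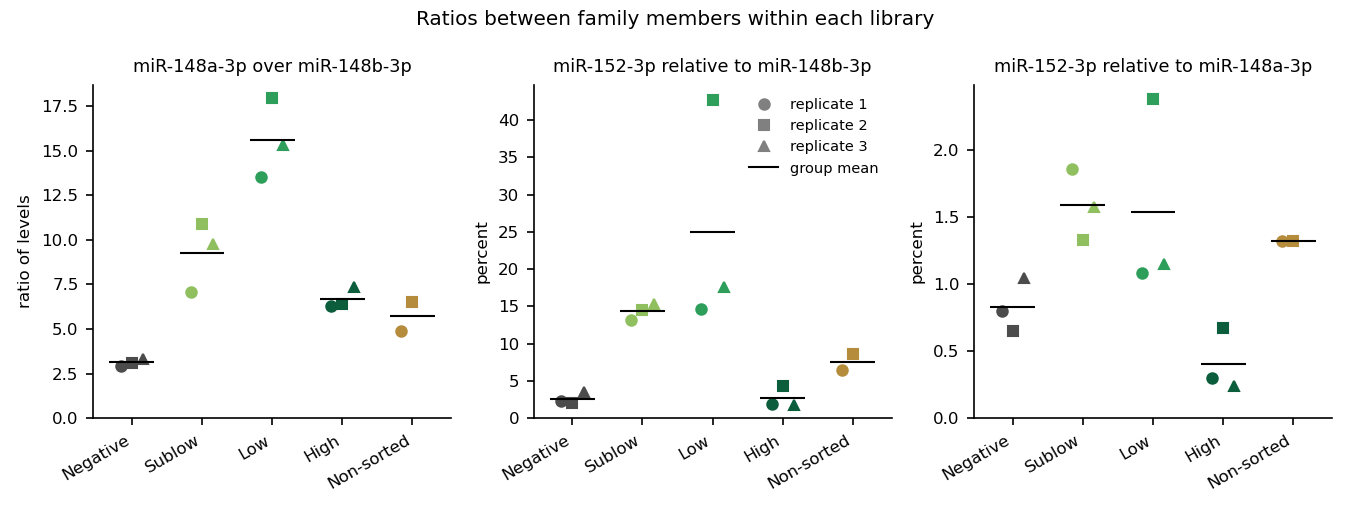
Ratios within each library of Negative, Sublow, Low, High and Non-sorted cells: miR-148a-3p over miR-148b-3p (left), miR-152-3p in percent of miR-148b-3p (middle) and in percent of miR-148a-3p (right), with points for libraries, marker shape for the replicate number and lines for group means. The left ratio is 13.5 to 17.95 in Low and 2.91 to 3.34 in Negative libraries, and the right one is 0.243 to 0.671% in High and 1.08 to 2.38% in Low libraries.

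Differences between populations were also estimated on the log2(RPM + 1) scale with limma, from one fit to all 14 libraries, always as the dimmer minus the brighter population. Of 588 tested entries, adjusted p was under 0.05 for 35.5% in Negative vs Sublow, 66% in Negative vs Low, 66.3% in Negative vs High, 34.7% in Sublow vs Low, 50.5% in Sublow vs High and 28.1% in Low vs High. All 3 members had separate library ranges in Negative vs Sublow, Negative vs Low, Sublow vs High and Low vs High, and miR-148a-3p alone in Negative vs High and Sublow vs Low. Of all tested entries, 51.2% had separate ranges in Negative vs Sublow, 73.6% in Negative vs Low, 67.9% in Negative vs High, 47.8% in Sublow vs Low, 55.8% in Sublow vs High and 43.4% in Low vs High. These contrasts took part in the choice of the members, so nothing is read from that count.

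For miR-148a-3p the log2 differences were −2.08 in Negative vs Sublow, −2.75 in Negative vs Low, −1.28 in Negative vs High, −0.67 in Sublow vs Low, 0.79 in Sublow vs High and 1.46 in Low vs High (SE 0.22 each). After median-ratio rescaling they were −1.60, −1.87, −0.73, −0.27, 0.86 and 1.13, all of the same sign. For miR-152-3p the differences in the same order were −2.90, −3.43, −0.12, −0.54, 2.78 and 3.32 (SE 0.44 each). Its Negative vs High difference turned to 0.38 after rescaling. Its Sublow vs Low difference turned to 0.11 without the 4 libraries marked Combo, so neither pair has a settled direction. That mark is read here and below as combined over lanes, which the labels do not define. miR-148b-3p differed by −0.53, −0.43, −0.19, 0.10, 0.34 and 0.25, and rescaling turned Negative vs Low to 0.44, Negative vs High to 0.36 and Low vs High to −0.08. Rescaling moved the median of all tested entries by 0.37, 0.82, 0.53, 0.38, 0.04 and −0.30 in these 6 pairs, and the direction of miR-148b-3p in Negative vs Low, Negative vs High and Low vs High rests on that choice.

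**Figure D3:**
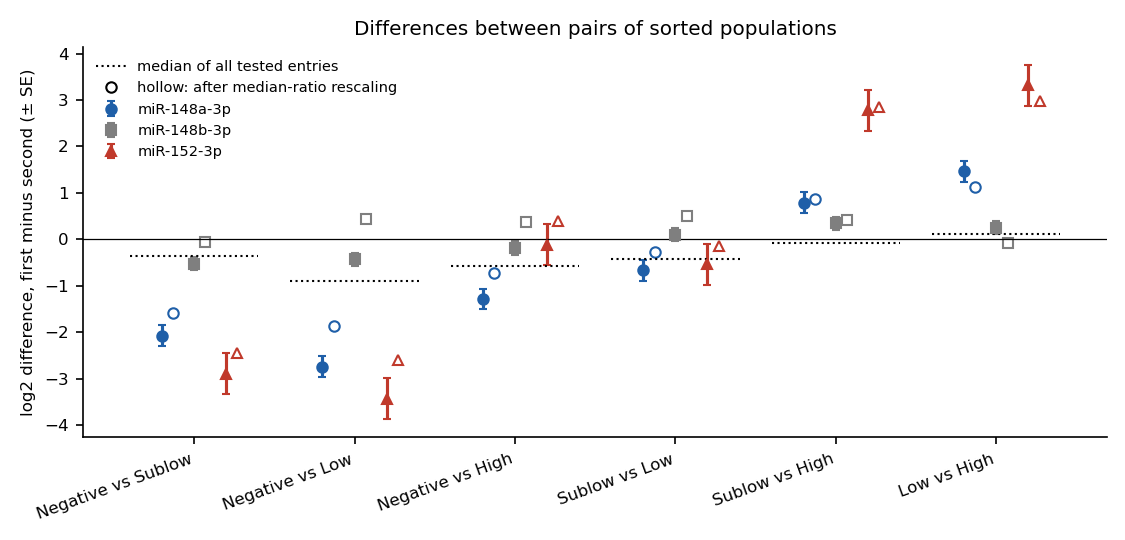
Log2 difference (first population minus second, on log2(RPM + 1), with SE from limma) of miR-148a-3p, miR-148b-3p and miR-152-3p in the 6 pairs of sorted populations, with hollow symbols after median-ratio rescaling and dotted lines at the median of all 588 tested entries. miR-152-3p stands at −3.43 in Negative vs Low and 3.32 in Low vs High, miR-148a-3p at −2.75 and 1.46, and miR-148b-3p lies within 0.53 of 0.

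Lane and population are partly tied together in the labels, so pairs were also compared within a lane where that was possible. On lane L005, 1 Negative library differed from 2 Sublow libraries by −1.51 for miR-148a-3p and −2.16 for miR-152-3p, and from 1 Low library by −2.07 and −2.06. On lane L006, 2 Negative libraries differed from 1 Sublow library by −2.56 and −3.28. Among the libraries marked as combined, 2 of Low differed from 2 of High by 1.63 for miR-148a-3p and 3.41 for miR-152-3p. Sublow minus Low on lane L005 was −0.56 for miR-148a-3p and 0.10 for miR-152-3p. No lane holds Negative and High or Sublow and High libraries together, so lane and population cannot be told apart directly in these pairs. A fit with a lane term gave −0.78 for miR-148a-3p and 0.98 for miR-152-3p in Negative vs High. That fit counts the libraries marked as combined as 1 lane, and High replicate 3 is alone on its lane. It links both pairs only through Low replicate 1 on lane L005 and the combined Low and High libraries.

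The 5p arms were minor products. miR-148a-5p was at 0, 6.71 and 3.81 RPM in Negative, 13.4, 15.7 and 23.2 RPM in Sublow, 45.3, 88.0 and 69.6 RPM in Low and 13.5, 23.0 and 14.3 RPM in High libraries, with 13.6 and 10.04 RPM in Non-sorted. Low libraries were above all others, Negative libraries below all others, and Sublow overlapped with High. miR-148b-5p lay between 14.2 and 41.0 RPM in all libraries, with overlap between all sorted populations. miR-152-5p was listed in 3 of 14 libraries, at 1 RPM in Negative replicate 3, 0.85 RPM in Sublow replicate 1 and 5.70 RPM in Low replicate 2, and it alone of the 6 members failed the filter of 10 RPM in 3 libraries. Both arms are among the rows the choice of members covered, so arm shares are described. Permutation p-values were computed for them along with those of the shifted forms below, and nothing is read from these p-values. The 5p arm made up 0.284 ± 0.317% of the miR-148a hairpin's values in Negative, 0.326 ± 0.0693% in Sublow, 0.780 ± 0.136% in Low and 0.564 ± 0.229% in High cells (SD, n = 3 each). Low libraries, at 0.635 to 0.905%, overlapped with High and lay above all Negative and Sublow libraries. The 5p arm of miR-148b was at 5.81 ± 1.19, 4.22 ± 1.20, 5.75 ± 0.948 and 5.58 ± 1.67% in the same order, with overlap between all 4. For the miR-152 hairpin the 5p arm was at 0 in 9 of 12 sorted libraries.

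Forms whose start is shifted against the annotated base carry another seed. The table lists 20 such entries for the 3 hairpins, of which 18 were above 0 somewhere and 5 passed the filter. The sign and number behind the name were read as this shift, since the file header does not define them. The most abundant was miR-148a-3p starting 1 base downstream, with a mean of 47.1 RPM over libraries (6.85 to 110 RPM) and the seed AGUGCAC. Starts 1 base upstream and 2 bases downstream averaged 18.2 and 12.7 RPM. For miR-148b-3p and miR-152-3p the form 1 base downstream, with the common seed AGUGCAU, averaged 12.03 and 1.77 RPM, and it was at 0 in 7 of 14 libraries for miR-152-3p. None of the shifted seeds of the family is the seed of a mature microRNA in the RefSeq table.

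The share of miR-148a-3p in shifted forms was 1.43, 1.36 and 1.34% in Negative, 1.66, 1.77 and 1.64% in Sublow, 2.19, 1.95 and 1.997% in Low and 2.62, 6.71 and 1.97% in High libraries. Negative, Sublow and Low libraries did not overlap with each other, and High overlapped with Low. An exact permutation test of any difference among the 4 sorted populations gave p = 0.0183, and adjusted over the 6 shares computed, arm shares included, p = 0.110, which does not pass. The denominator of each share holds a 3p value that took part in the choice of members. No conclusion is therefore drawn from the p-values of the shares, here or further on. With 1 library left out, the adjusted exact permutation p was 0.00974 without High replicate 2, 3.9e-04 without High replicate 3 and 0.104 to 0.356 without any of the other 10. The form starting 4 bases upstream was listed only in the 4 libraries marked as combined, at 18.6 and 23.7 RPM in Low and 27.5 and 108 RPM in High, and was at 0 in the other 10. Of 104 entries with that shift in the whole table, 33 were listed in all 4 combined libraries and in no other. It was seen in libraries of both Low and High cells, and High replicate 3 and Low replicate 1, of a single lane, list it at 0. Without it the shares averaged 1.38 ± 0.0445% in Negative, 1.69 ± 0.0664% in Sublow, 1.90 ± 0.254% in Low and 2.31 ± 0.755% in High libraries (SD, n = 3 each), and the adjusted exact permutation p was 0.214. Shifted shares of miR-148b-3p (2.46 to 3.93% by group mean, adjusted exact permutation p = 0.310) and of miR-152-3p (2.205 to 21.3%, adjusted exact permutation p = 0.310) did not pass either. The 21.3% was the High mean, which was 4.14% without the form 4 bases upstream, and the adjusted exact permutation p was then 1. The share of miR-152-3p rests on 0 to 11.8 RPM of shifted forms.

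**Figure D4:**
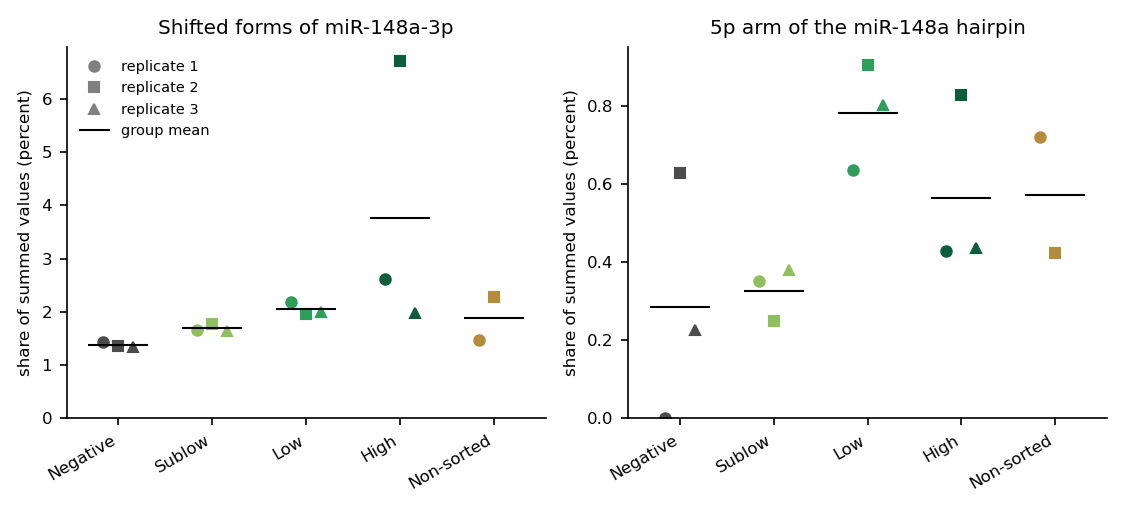
Share of summed values, in percent, that lies in shifted forms of miR-148a-3p (left) and in the 5p arm of the miR-148a hairpin (right) in each library of Negative, Sublow, Low, High and Non-sorted cells, with marker shape for the replicate number and lines for group means. The shifted share is 1.34 to 1.43% in Negative, 1.64 to 1.77% in Sublow, 1.95 to 2.19% in Low and 1.97 to 6.71% in High libraries.

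The entries whose profiles were most like the members were found by Pearson r of log2(RPM + 1) over the 14 libraries, which share their totals and populations. For miR-148a-3p they were miR-25-3p (r = 0.974), let-7d-5p (0.967), miR-98-5p (0.965), let-7i-5p (0.961) and let-7f-1-5p (0.959). miR-25-3p, of a cluster related to miR-17-92, was also alike in level, at 1713 RPM in Negative, 4636 in Sublow, 7958 in Low and 2999 in High cells on average. Mean let-7d-5p was 6916, 13247, 16478 and 10883 RPM in the same order, a flatter profile with the same peak. For miR-152-3p they were miR-130b-5p (0.925), miR-298-5p (0.876), miR-222-3p (0.870), miR-98-5p (0.870) and miR-148a-3p (0.853). miR-222-3p, which represses the cell cycle inhibitor Cdkn1b, averaged 42.9 RPM in Negative, 160 in Sublow, 316 in Low and 63.0 in High cells. Within the family r was 0.82 between miR-148a-3p and miR-148b-3p and 0.71 between miR-148b-3p and miR-152-3p.

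**Figure D5:**
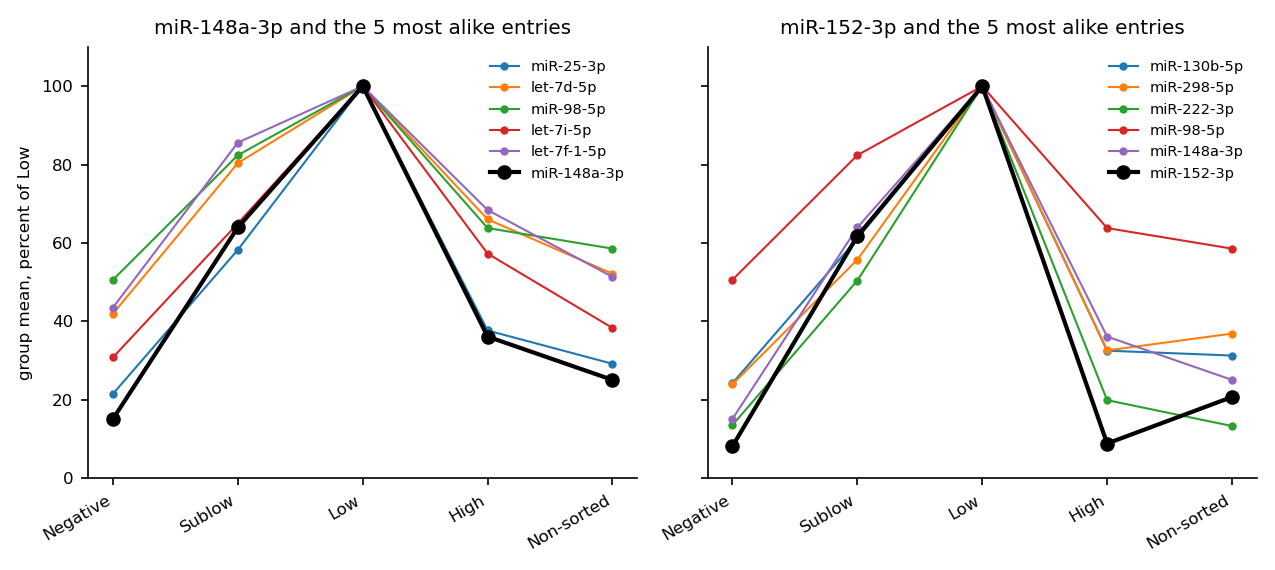
Group means as a percent of the Low mean for miR-148a-3p (left, black) and miR-152-3p (right, black) and for the 5 entries most like each by Pearson r over 14 libraries (coloured), in Negative, Sublow, Low, High and Non-sorted cells. All lines peak in Low; in High cells miR-148a-3p averages 3049 RPM against 8441 in Low, and miR-152-3p 11.95 RPM against 135.

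Other microRNAs reported to target DNA methyltransferases were set beside the family, as a list drawn up with earlier results of these data known. The p-values of its members are therefore descriptive. All 10 names of this list were found and 7 were tested: miR-29a-3p and miR-29c-3p, which repress DNMT3A and DNMT3B in human cells, miR-101a-3p, miR-101b-3p, miR-143-3p, miR-185-5p and miR-342-3p. In Low vs High, where 28.1% of all entries passed, 3 rose and 0 fell (median log2 difference 0.75, against 0.11 for all tested entries), in Negative vs Low, where 66% passed, 0 rose and 3 fell (−0.78, against −0.90), and in Sublow vs Low, where 34.7% passed, 1 rose and 2 fell (−0.66, against −0.43). Negative vs Sublow had 0 up and 2 down against 35.5% of all entries, Negative vs High 1 up and 1 down against 66.3%, and Sublow vs High 1 up and 0 down against 50.5%. Several of these counts rest on the scaling, and after median-ratio rescaling 2 rose and 1 fell in Low vs High and 2 rose and 1 fell in Negative vs Low. With a lane term or without the 4 combined libraries, 0 rose and 0 fell in Sublow vs Low, and without these libraries 1 rose and 0 fell in Low vs High.

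miR-29a-3p had the peak in Low that miR-148a-3p has, at 145 ± 25.4 RPM in Negative, 182 ± 31.1 in Sublow, 274 ± 36.2 in Low and 162 ± 5.54 in High cells (SD, n = 3 each). Its Low vs High difference of 0.75 (limma adjusted p = 0.00581) fell to 0.42 with adjusted p = 0.107 after median-ratio rescaling, and Negative vs Low of −0.92 (adjusted p = 4.17e-04) to −0.05. miR-101b-3p was higher in Low than in High cells, with 149 ± 10.2 against 71.3 ± 17.5 RPM (log2 difference 1.09, limma adjusted p = 0.00501), and this call was lost without the 4 combined libraries (adjusted p = 0.268). miR-185-5p, reported as a repressor of DNMT1 in human cells, was highest in Sublow instead, at 142 ± 13.4 RPM in Negative, 206 ± 15.3 in Sublow, 132 ± 14.5 in Low and 63.7 ± 5.74 in High cells, and rose in Sublow vs High by 1.68 on the log2 scale (limma adjusted p = 2.47e-06). miR-342-3p, at 2.12 ± 1.97 RPM in Negative and 17.0 ± 3.12 in Low cells, fell by 2.80 in Negative vs Low (limma adjusted p = 5.01e-04). Its Negative values, 0 to 3.91 RPM, lie near the smallest listed values, so the size of this difference is uncertain. miR-29c-3p, miR-101a-3p and miR-143-3p passed in no pair of the main fit, but each passed under some other setting. After median-ratio rescaling miR-29c-3p passed in Negative vs Low (1.23, limma adjusted p = 0.00591) and Low vs High (−0.98, 0.0347). In Negative vs Low it also passed under quantile normalization (limma adjusted p = 0.0198). miR-143-3p passed in Low vs High with a replicate block (limma adjusted p = 0.0292), among other settings. miR-101a-3p passed only in some fits with 1 library left out. miR-342-3p is also among the haematopoietic and miR-143-3p among the mesenchymal marker entries described below.

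Mir148a, Mir148b and Mir152 lie on the chromosomes of the Hoxa, Hoxc and Hoxb clusters, and the microRNAs encoded in Hox clusters were therefore looked at too. The list was not limited to the clusters on these chromosomes. This list too was drawn up with earlier results of these data known, and its p-values are descriptive. Of 6 names, 4 were tested. miR-10b-5p also peaked in Low but was lower in Sublow than in High cells, unlike the 3p members of the family, at 52.2 ± 16.5 RPM in Negative, 181 ± 49.6 in Sublow, 548 ± 76.5 in Low and 297 ± 25.5 in High cells, and fell by 3.41 in Negative vs Low (limma adjusted p = 2.67e-07). It passed in all 6 pairs, with 3 of these calls lost under some settings. The Low vs High call (0.88, adjusted p = 0.0255) was lost after median-ratio rescaling (adjusted p = 0.158) and without High replicate 3, Low replicate 2 or Low replicate 3 (adjusted p = 0.0776, 0.0831 and 0.0726). The Sublow vs High call (−0.74, adjusted p = 0.0317) was lost after median-ratio rescaling (0.0543), with a lane term (0.662) and without High replicate 1, High replicate 2, Sublow replicate 1 or Sublow replicate 2 (0.0792, 0.0749, 0.0546 and 0.116). Both calls were also lost with no filter on low values (adjusted p = 0.0521 in Low vs High and 0.0668 in Sublow vs High), and Low vs High with a lane term (0.0603) and under quantile normalization (0.1498). Without the 4 combined libraries, calls were lost in Sublow vs Low (adjusted p = 0.054), Sublow vs High (0.313) and Low vs High (0.407). miR-10a-5p passed in Negative vs High, at −4.38 (adjusted p = 0.0203), which a lane term turned to 0.31 (adjusted p = 0.924) and which was lost without Negative replicate 1, Negative replicate 2 or High replicate 3 (0.0774, 0.0592 and 0.0602), or without the 4 combined libraries (0.0677). With a replicate block it also passed in Negative vs Low (adjusted p = 0.00183) and Sublow vs High (0.00377), and likewise without Sublow replicate 3 (0.0444 and 0.0173) and, in Negative vs Low, without Negative replicate 3 (0.0392). The copies of miR-196a-5p passed in no pair.

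Markers of other cell types were measured in the same libraries. Of the 6 mesenchymal and smooth muscle entries in the table, miR-145-5p was at 0 in every library, and their sum was 21.8 to 42.2 RPM in Negative, 51.8 to 76.7 in Sublow, 35.2 to 99.4 in Low, 31.5 to 54.0 in High and 43.7 to 63.8 RPM in Non-sorted libraries. The entries miR-199a-2-3p and miR-199b-3p had the same range in every group but Sublow (2.90 to 5.96 and 2.07 to 5.96 RPM). The sum may therefore count the same reads under both names. The sum was highest in Low replicate 2, which also had the most miR-152-3p and miR-148a-3p. Low replicate 1, with a sum of 90.1 RPM, had the least of both among the Low libraries. Of the 6 haematopoietic entries, miR-142-3p was at 0 in every library, and their sum was 6.51 to 105 RPM in Negative, 21.0 to 171 in Sublow, 58.5 to 233 in Low, 32.1 to 83.4 in High and 10.04 to 11.3 RPM in Non-sorted libraries. Among the Low libraries the haematopoietic sum was lowest in replicate 2, at 58.5 RPM. Both sums are at the scale of miR-152-3p and far below miR-148a-3p. The 2 endothelial entries summed to at most 17.1 RPM, in High, and the 2 erythroid entries were at 0 in all libraries. The part of these cells in the levels of miR-152-3p was not tested.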

How the data were processed

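Small RNA libraries were prepared with a TriLink CleanTag kit, per the labels. The authors deposited 1 table of RPM values, reads scaled to a total of 1e+06 over 2030 microRNA entries in each of 14 libraries. The build mm9 is named in the submitters' processing notes, and the aligner is not given in the sources used here. About 70.5 to 85.3% of low values were whole reads within 0.1 read, too few for a count test. Depth was estimated at 1.89 to 16.4 M reads per library (M, 1e+06).

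Entries with at least 10 RPM in at least 3 libraries (588) were fitted as log2(RPM + 1) in limma 3.58.1 (R 4.3.3, empirical Bayes with trend, 5 groups), two-sided, with Benjamini-Hochberg adjustment over all 588 and a threshold of 0.05. This scale understates differences of low entries. The procedure was tested on simulated data. Shares of shifted forms and of 5p arms were put through exact permutation over all 369600 assignments of the 12 sorted libraries. Members and lists were chosen with earlier results of these data known. Named were all family entries, up to 5 shifted forms per arm, the 5 entries most like each selected member, and 2 lists from general knowledge, for targeting of DNA methyltransferases and for Hox clusters. Each library was left out in turn, and pseudocount, filter, scaling, lane and replicate terms were varied. Sequences and GRCm38.p6 positions come from RefSeq and GENCODE M21, and figures from matplotlib 3.10.9.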

Additional observations from a re-analysis of the deposited data

How the results depend on the processing

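The 6 log2 differences of miR-148a-3p kept their sign under all 21 alternatives tried (pseudocount 0.1 or 10, median-ratio or quantile scaling, lane term, replicate block, each library left out and, chosen after seeing the data, the 4 combined libraries left out), as did those of miR-152-3p except Negative vs High (6 sign changes) and Sublow vs Low (2). miR-148b-3p turned to 0.44 in Negative vs Low and to −0.079 in Low vs High under median-ratio rescaling, and to −0.0036 in Low vs High under quantile normalization, where the rescaling itself moves all entries. Of 630 recomputed differences of 5 members, 581 stayed within the spread between replicates, 46 moved further and 3 turned in pairs without overlap. The number of entries passing fell with a lane term to 239 in Negative vs High (from 390), 130 in Sublow vs Low (204) and 159 in Sublow vs High (297), and without the combined libraries, where Low and High have 1 library each that is assumed to vary like the rest, to 116, 193 (Sublow vs High) and 45 in Low vs High (165). The shifted share of miR-148a-3p passed (adjusted exact permutation p) with zeros set to the smallest listed value (0.0374), as a log2 ratio (0.0179), with a replicate block (0.0208) and without the combined libraries (0.0214), and ranged from 3.9e-04 to 0.356 with 1 library left out. That of miR-152-3p passed as a log2 ratio (0.0295) and ranged from 0.029 to 0.637 with 1 library left out. The 5p share of miR-152 passed as a log2 ratio (0.0179). With low numerators, both log2 ratios of miR-152 largely follow the 3p level by construction, and no conclusion is drawn from either. The replicate block moved no count of passing entries by over 1.5 times (Low vs High 177). Replicate numbers go with shared codes in the descriptions, but same-numbered libraries of different groups deviated together (r over 0.1) in 17 of 26 pairs (median r 0.33) and differently numbered ones in 11 of 52 (median −0.11). Not every same-numbered pair did (r −0.35 to 0.78), and the labels do not state what the codes stand for. The main tests leave the replicate number out, which does not show that same-numbered libraries are independent. Some outcomes rest on this choice. The shifted share of miR-148a-3p (adjusted exact permutation p = 0.0208) passed with the block and not in the main tests. The same held for miR-10a-5p in Negative vs Low and Sublow vs High (limma adjusted p = 0.00183 and 0.00377). It also held for miR-143-3p in Low vs High (limma adjusted p = 0.0292). The copies of miR-196a-5p also went with the replicate number, as given below.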

Other observations

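Other microRNAs split the libraries in ways that cross the populations. The copies miR-196a-1-5p and miR-196a-2-5p, encoded in Hox clusters, were at 10.5 to 131 and 16.2 to 160 RPM in the 4 libraries numbered replicate 3 and at 0 and at most 1.60 RPM in the other 10. miR-10a-5p was highest in replicate 3 of each sorted population, at 108 RPM in Negative, 729 in Sublow, 1199 in Low and 846 in High, against at most 14.2, 23.7, 74.8 and 425 RPM in the other libraries of these populations. miR-148a-3p had its group's highest value in replicate 3 of Negative and High, and miR-152-3p in replicate 3 of Negative and Sublow. Negative replicate 3 is also the only Negative library on lane L005, and High replicate 3 the only High library of a single lane. Replicate 3 and lane therefore cannot be told apart in Negative and High. miR-295-3p, a microRNA of pluripotent cells, was listed in 7 of 14 libraries at 395 to 928 RPM and at 0 in the other 7. This split went with the lane. Every library of lane L006 lists miR-295-3p, at 663 to 839 RPM, and no library of another single lane does. The libraries marked as combined fall on both sides. What sets the split was not tested. Low replicate 2 and High replicate 2, the libraries of their populations with the most miR-152-3p, both list miR-295-3p. Negative replicates 1 and 2, which have the least miR-152-3p, list miR-295-3p too. miR-150-5p, a lymphocyte microRNA, was at 0 in all sorted libraries that list miR-295-3p.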
